A study of Mus musculus with 2 samples.

Results

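The 9 genes described here encode nuclear hormone receptors, and they are followed across the cell types of young mouse visceral fat. They were chosen by symbol as Nr3c1, Nr3c2, Thra, Thrb, Rora, Esr1, Nr1h3, Ppara and Rxra, with earlier results of these data known. These are 9 of 56980 genes in the deposited tables. All 9 were measured and all 9 passed the filter on low counts in each comparison between cell types. The samples were visceral adipose tissue (VAT, gonadal fat per the methods of the study) from female C57BL/6J mice aged 2 months, with 1 library from each of 2 mice, called replicate 1 and replicate 2. Nuclei were isolated and sequenced with the Singleron GEXSCOPE kit per the protocol, although the sample descriptions name 10x Genomics. The labels give the cell type as adipocytes, while the nuclei also held the markers of 5 other cell types.

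Nuclear hormone receptors are transcription factors that bind DNA and whose activity is set by small lipophilic ligands such as steroids, thyroid hormone, oxysterols and fatty acids. Some bind as pairs of the same receptor and some as pairs with a retinoid X receptor, and coactivators or corepressors recruited to them raise or lower transcription of nearby genes. In fat they are known for control of adipocyte formation, lipid storage, lipid oxidation and the response to hormones.

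Replicate 1 had 7344 called nuclei, of which 2833 passed the filters of over 500 genes, over 1000 UMIs (unique molecular identifiers, each a counted RNA molecule) and under 15% mitochondrial UMIs. Replicate 2 had 17148 called nuclei, of which 12225 passed. The nuclei that passed held 8466237 UMIs in replicate 1 and 48068273 in replicate 2, with medians of 2221 and 2726 UMIs per nucleus. The median mitochondrial share was 6.20% in replicate 1 and 0.621% in replicate 2. Other barcodes, not called as nuclei, held 60.9% of the UMIs of replicate 1 and 45.7% of those of replicate 2. The libraries shared 85 barcodes among called nuclei and 27 among those that passed. Within the same cell types the chi-squared between libraries was 86.4 per degree of freedom over 31197 genes, set against counting error only. The libraries come from separate mice, so each level is given for both.

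Clusters named from marker genes gave 6 cell types. Adipocytes, the lipid-storing cells, numbered 1986 nuclei in replicate 1 and 7046 in replicate 2. Fibro-adipogenic progenitors (FAPs), the connective-tissue cells from which adipocytes form, numbered 254 and 1301. Mesothelial nuclei, from the sheet of cells that covers visceral fat, numbered 241 and 2094. Immune nuclei, mostly macrophages, numbered 228 and 1090, endothelial nuclei 73 and 494, and smooth muscle nuclei 23 and 159. A cluster of 69 nuclei led by Saa3 and Prg4 was given no name and was not used in the tests.

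Levels are in CPM, the UMIs of a gene per 1000000 UMIs of all nuclei of that type in that library. Genes that mark adipocytes were also counted in every other type, and whether that RNA was carried over or made there was not tested. The median level of 10 adipocyte markers, as a percent of their level in adipocytes of the same library, was 29.3% and 28.0% in FAPs, 33.1% and 31.1% in mesothelial nuclei, 40.7% and 55.9% in endothelial nuclei, 31.7% and 21.0% in smooth muscle nuclei and 37.3% and 30.1% in immune nuclei (replicate 1 and replicate 2). The markers summed to 19593.2 and 24027.1 CPM in adipocytes and to between 4090.8 and 8986.4 CPM in the other types, Ghr was the most abundant of them, and none of the 10 was at 0. The highest was Pnpla2 in endothelial nuclei of replicate 2, at 192% of its adipocyte level. A receptor whose level in another type lies within the range of these markers cannot be told apart, by level alone, from adipocyte RNA carried into that type. In immune nuclei 8 of the 9 receptors lay within that range in replicate 1 and 6 in replicate 2. In FAPs it was 1 and 0, with 8 and 9 above the range.

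**Figure D1:**
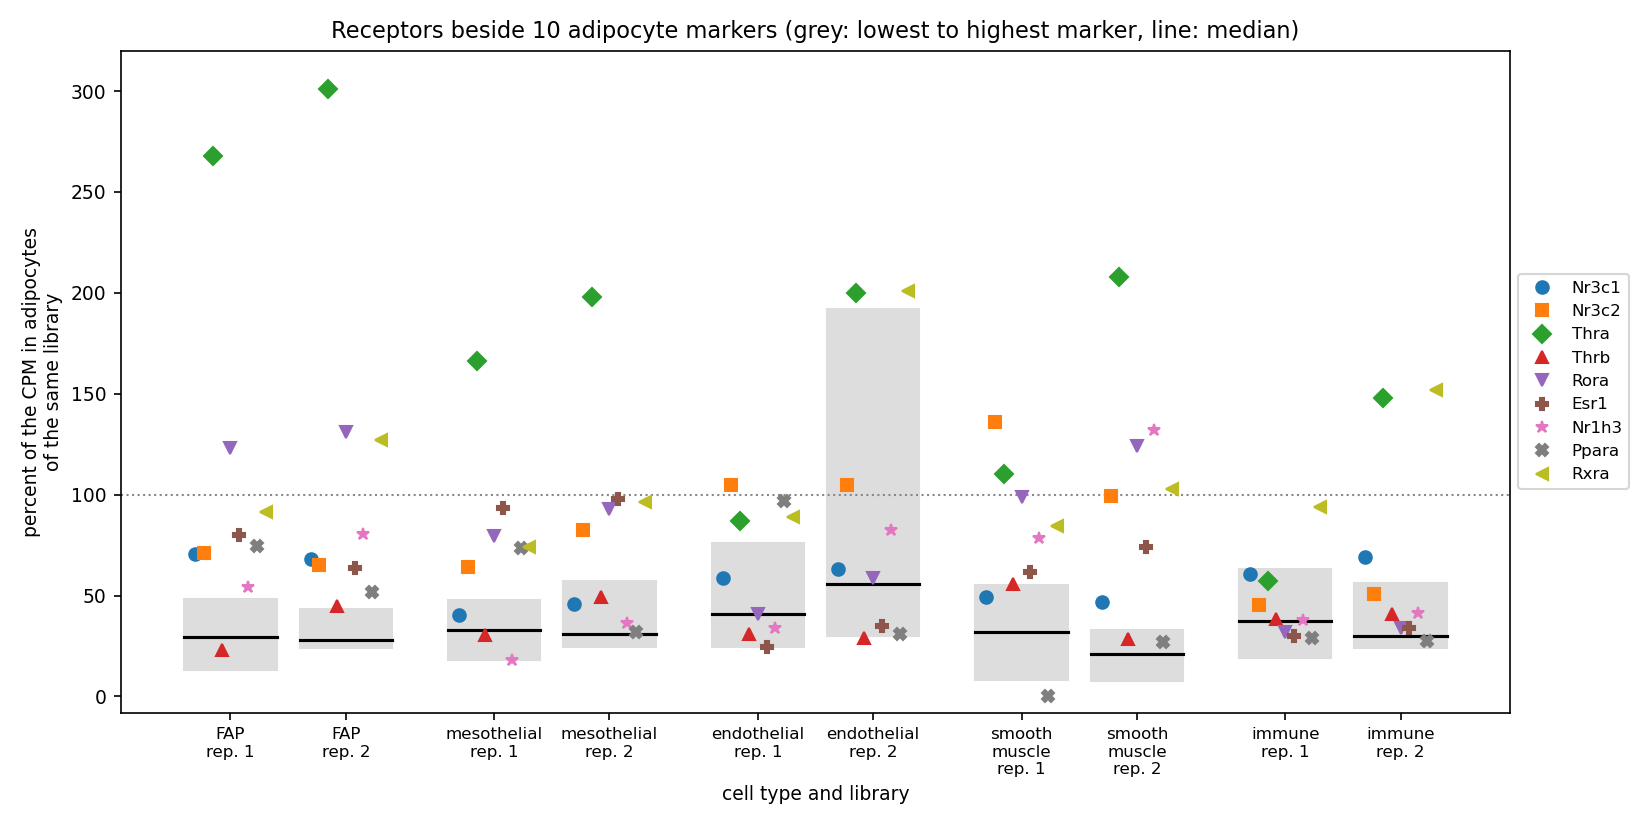
The vertical axis is the level of each gene in a cell type as a percent of its level in adipocytes of the same library, and the horizontal axis gives each cell type and library. Grey bands span the lowest to highest of 10 adipocyte markers with a line at their median, and points are the 9 receptors; Thra stands at 268% and 301% in FAPs, while most receptors fall inside the bands in immune nuclei.

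Every type was set against the unweighted average of the other 5 in edgeR, over 13778 genes and with library as a block. A gene was called where its adjusted p was under 0.05 and its log2 fold change was 1 or more in either direction. Folds include the scaling of edgeR, so a called gene can differ by less than 2-fold in CPM. In adipocytes 5 of the 9 receptors were called higher (Thrb, Ppara, Esr1, Nr1h3 and Nr3c1), where 9.33% of all genes were, and 0 were called lower, where 17.7% were. By adjusted p alone 8 of 9 differed in either direction, where 47.0% of all genes did. FAPs had 1 receptor called higher, Thra, where 7.21% of genes were. Immune nuclei had 2 called lower, Rora and Esr1, where 5.94% were. Mesothelial nuclei had 1 called lower, Nr1h3, where 2.60% were, and endothelial nuclei had 1 called lower, Esr1, where 2.39% were. The median log2 fold change of the 9 receptors in adipocytes was 1.11 beside -0.05 over all genes tested, and in immune nuclei it was -0.76 beside 0.06.

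In smooth muscle nuclei edgeR called 0 of the 9 receptors in either direction, where 7.53% of genes were called. At an unadjusted p under 0.05 there were 5 by edgeR and 3 by DESeq2, and DESeq2 also called 0. With 23 nuclei in replicate 1 this was the smallest group, and a count of 3 UMIs there equals 45.0 CPM. These counts rest on a few receptors per type and some depend on the library. By fold alone the number of receptors past the fold in FAPs was 0 without replicate 1 and 3 without replicate 2, in immune nuclei 3 and 4, in mesothelial nuclei 1 and 2, and in endothelial nuclei 1 and 3. These numbers were not set against the share of all genes past the fold in the same comparison.

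Compared directly with FAPs, the progenitors of the same lineage, adipocytes had 1 receptor called higher, Thrb, where 9.98% of genes were, and 1 called lower, Thra, where 14.8% were. By adjusted p alone 7 of 9 differed, where 34.2% of genes did. Ppara was just under the fold threshold (0.98, adjusted p 0.00325) and was called in 9 of 13 alternatives. The receptors' median log2 fold change was 0.77 beside -0.02 over all genes. The median of all genes in adipocytes was -0.05 with the scaling of edgeR and -0.18 with that of DESeq2. Of the calls over all genes, 34.5% were higher with edgeR and 26.9% with DESeq2. DESeq2 called 4 of the 5, as Nr3c1 fell to a log2 fold change of 0.99 against the other types.

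**Figure D2:**
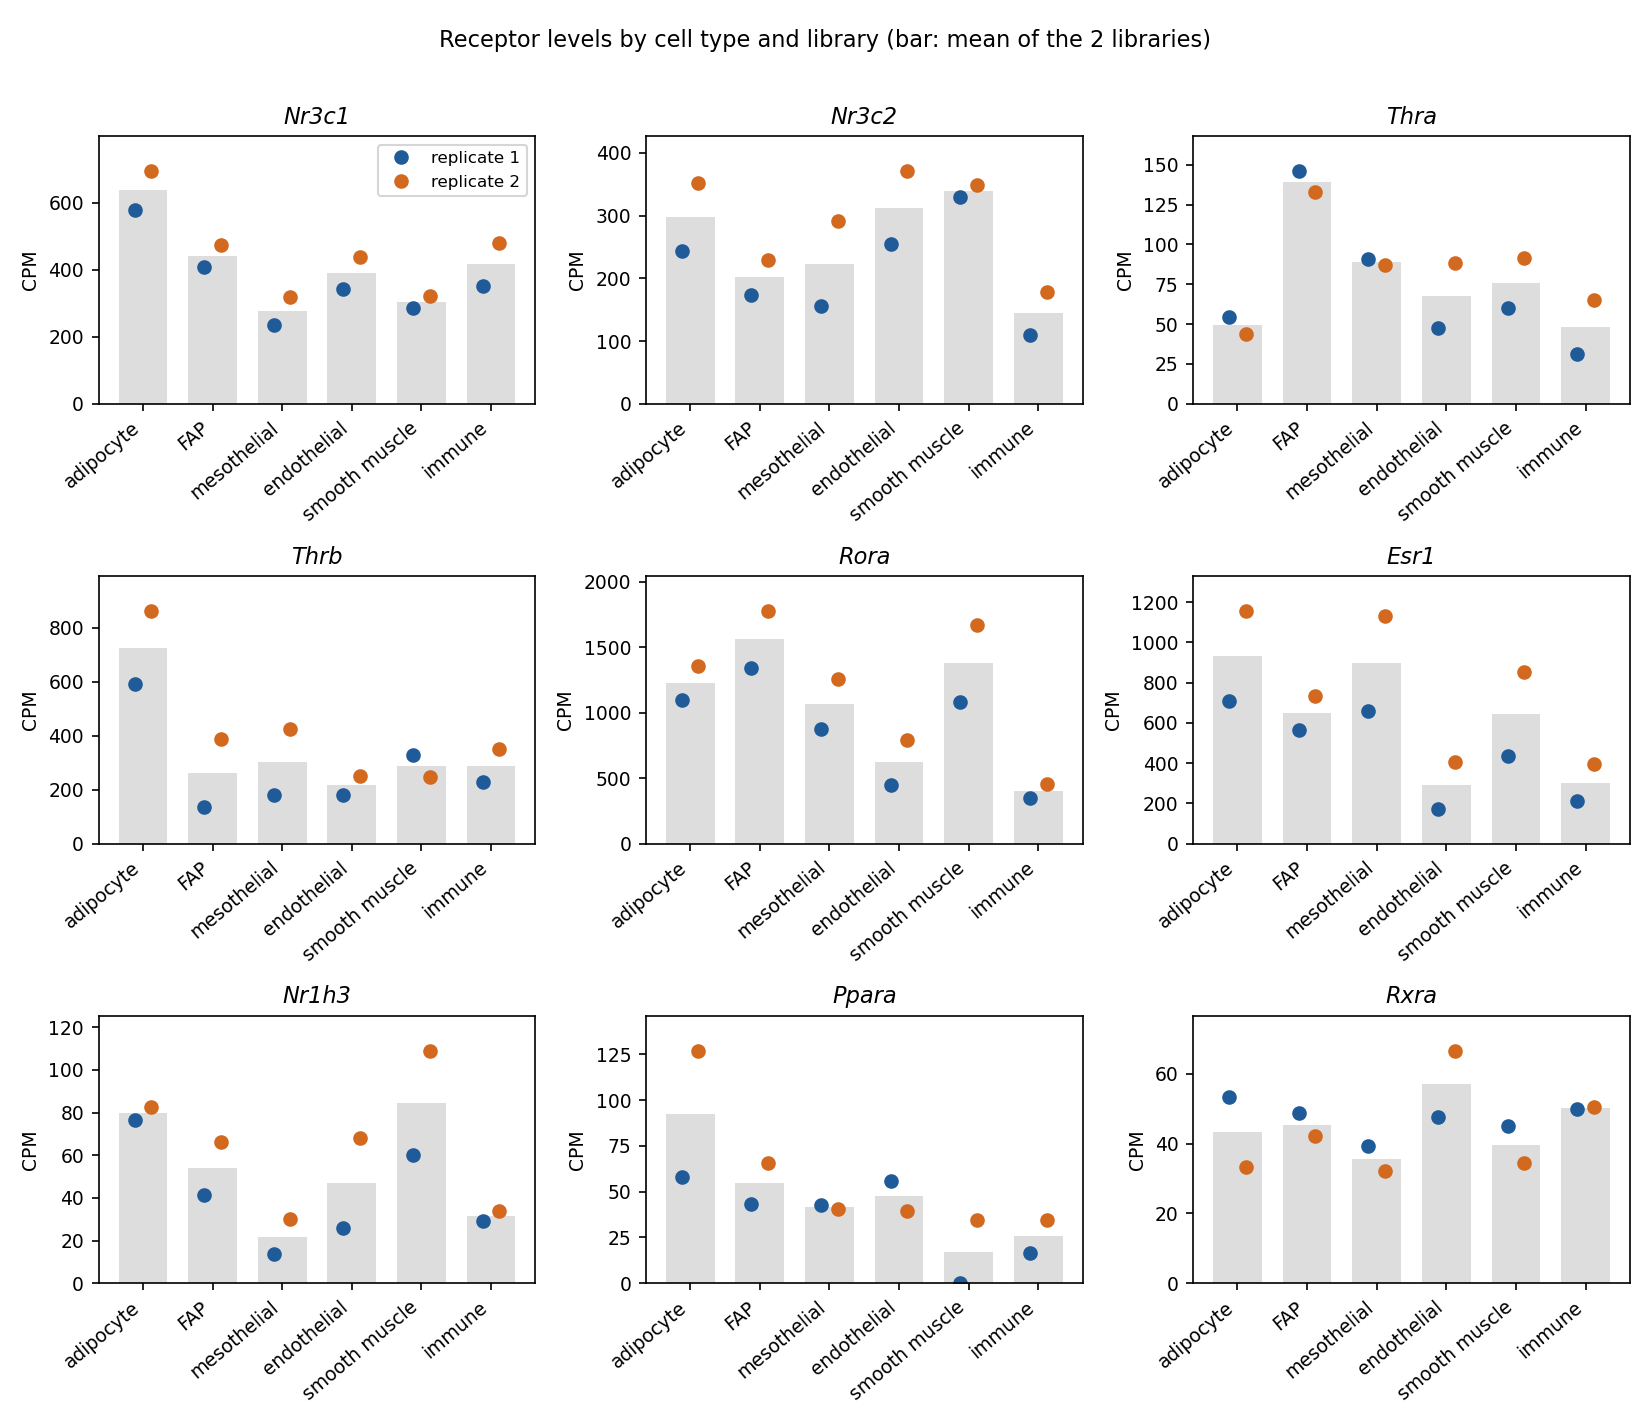
The vertical axis of each panel is the level of a receptor in CPM and the horizontal axis is the cell type, with a point for each library and a bar for their mean. Thrb reached 591 and 863 CPM in adipocytes and no more than 425 CPM elsewhere, while Thra was highest in FAPs at 146 and 133 CPM.

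Nr3c1 encodes the glucocorticoid receptor, which binds cortisol and corticosterone. Its level in adipocytes was 579 CPM in replicate 1 and 694 in replicate 2 (mean 637, SD 81.6). In FAPs it was 409 and 475, in immune nuclei 352 and 480.2, in endothelial nuclei 341 and 437, in smooth muscle nuclei 285 and 323, and in mesothelial nuclei 234 and 319. Both libraries were highest in adipocytes, whose range does not overlap that of FAPs, the next type, and all 10 pairs of another type and a library had less than adipocytes. FAPs, immune and endothelial nuclei overlapped in turn, as did smooth muscle and mesothelial nuclei at the low end. The log2 fold change in adipocytes was 1.11 (SE 0.15, adjusted p 4.5e-09). In mesothelial nuclei it was -0.60 (adjusted p 0.00672) and in smooth muscle nuclei -0.67 (adjusted p 0.0304), both under the fold threshold.

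Nr3c2 encodes the mineralocorticoid receptor, which binds aldosterone and also the glucocorticoids. It followed a different order, with 330.2 and 349 CPM in smooth muscle nuclei, 255 and 371 in endothelial nuclei, 243 and 352 in adipocytes, 156 and 291 in mesothelial nuclei, 173 and 230.0 in FAPs, and 110.4 and 179 in immune nuclei. The range of each type overlapped that of its neighbour in this order, although 3 of the 5 neighbouring pairs kept their order in both libraries. The order of endothelial nuclei over adipocytes depends on a small lymphatic-like cluster: without it endothelial nuclei had 258 and 319 CPM, below adipocytes in replicate 2. In adipocytes the log2 fold change was 0.66 (SE 0.15, adjusted p 2.5e-04) and in immune nuclei -0.89 (SE 0.18, adjusted p 9.1e-05), both short of the threshold of 1.

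The enzyme Hsd11b1 makes active glucocorticoid inside cells, and H6pd supplies its cofactor. Hsd11b1 had 71.4 and 38.1 CPM in adipocytes and 59.5 and 66.1 in FAPs. It was called higher in FAPs (log2 fold change 1.12, adjusted p 1.8e-04), and its value in adipocytes, 0.98, was just short of the fold threshold. Hsd11b2, which inactivates glucocorticoids, did not pass the filter on low counts. Of 18 tested glucocorticoid targets, 4 were called higher in adipocytes (Lpin1, Pdk4, Angptl4 and Glul) and 3 lower (Sgk1, Cebpd and Ddit4), with a median of 0.00 beside -0.05. In replicate 2 adipocytes had less Glul than endothelial nuclei (740.0 against 847 CPM) and less Angptl4 than smooth muscle nuclei (35.5 against 40.1). Over all genes 9.33% were called higher and 17.7% lower, the background for each list in adipocytes. Lpin1, a phosphatase of triglyceride synthesis, had 768 and 724 CPM in adipocytes and 139 and 195 in FAPs (log2 fold change 2.02). Sgk1, a kinase induced through both corticosteroid receptors, had 11.4 and 11.9 CPM in adipocytes and 151 and 105 in endothelial nuclei, where it was called higher (1.74). Fkbp5, a chaperone that lowers hormone binding by the receptor, had 33.5 and 90.8 CPM in adipocytes and 178 and 261 in FAPs, the only of 7 receptor chaperones called in FAPs (log2 fold change 1.29, adjusted p 4.4e-08). In adipocytes 0 of the 7 passed both edgeR thresholds, and their median was 0.04.

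Thra and Thrb encode the thyroid hormone receptors alpha and beta, which bind the same hormone. Thra had 146 and 133 CPM in FAPs, 90.7 and 87.2 in mesothelial nuclei, 60.0 and 91.6 in smooth muscle nuclei, 47.5 and 88.3 in endothelial nuclei, 54.5 and 44.1 in adipocytes, and 31.2 and 65.3 in immune nuclei. Both libraries were highest in FAPs, without overlap with mesothelial nuclei, while the types below mesothelial nuclei overlapped in turn. The FAP level was 268% and 301% of the adipocyte level, above the range of the adipocyte markers. In FAPs the log2 fold change was 1.01 (SE 0.20, adjusted p 6.0e-05), close to the threshold: it was 0.85 without replicate 1 and 1.51 without replicate 2, and the call ended with 15 principal components (0.99) and with nuclei under 5% mitochondrial UMIs (0.95).

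Thrb was highest in adipocytes, at 591 and 863 CPM. Mesothelial nuclei had 179.7 and 425, immune nuclei 227 and 350.1, smooth muscle nuclei 330.2 and 246, FAPs 135 and 388, and endothelial nuclei 181 and 250.4. Adipocytes did not overlap any other type, and the other types overlapped their neighbours. The log2 fold change in adipocytes was 1.80 (SE 0.16, adjusted p 2.1e-14), the largest among the 9 receptors, although Ppara was larger without replicate 1 (1.93 against 1.74). In nuclei thinned to 1000 UMIs each, 35.6% and 49.3% of adipocytes had a Thrb UMI, against 11% and 13% of endothelial nuclei, the type with the lowest mean level. Without thinning the shares were 62.1% and 80.3% against 26.0% and 26.9%, at median depths of 2476.5 and 4233.5 UMIs in adipocytes and 2035 and 1808.5 in endothelial nuclei. Thrb in FAPs stood at 22.9% and 45.0% of the adipocyte level, beside markers at up to 48.5% and 43.4%.

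The pair thus differed in opposite directions between adipocytes and their progenitors. Against FAPs, Thrb was higher in adipocytes, with a log2 value of 1.78 (SE 0.23, adjusted p 4.2e-09), and Thra was lower, at -1.24 (SE 0.24, adjusted p 2.5e-05). Each direction held in both libraries. The Thra call ended with nuclei under 5% mitochondrial UMIs, where its value was -0.75. On the scale of CPM per kilobase of exon, Thrb stood at 64.3 and 93.8 in adipocytes and Thra at 6.88 and 5.56. In FAPs Thrb stood at 14.7 and 42.2 and Thra at 18.4 and 16.7. Per kilobase of the whole gene, introns included, their order in adipocytes differed between the libraries (Thrb 1.56 and 2.27, Thra 1.66 and 1.34). In FAPs Thra was higher on that scale (4.45 and 4.05, against 0.356 and 1.02).

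Slc16a10 carries thyroid hormone across the cell membrane. It had 433 and 549 CPM in adipocytes and 91.9 and 152 in FAPs, and it was called higher in adipocytes (log2 fold change 2.17). Of 4 tested genes of thyroid hormone handling, 1 was called higher in adipocytes and 1 lower (median -1.0). Of 7 tested thyroid hormone targets, 4 were called higher in adipocytes and 0 lower by edgeR, with a median of 1.40. They were Me1, an enzyme that makes NADPH for lipid synthesis (log2 fold change 2.35), Gpd2 (1.84), Thrsp (1.53) and Ucp1 (1.40, equal to the median). In a small subcluster led by Ucp1, described further on, Ucp1 had 106 and 77.0 CPM at resolution 0.3. The other adipocytes had 5.34 and 1.59 CPM, below mesothelial, endothelial and immune nuclei in both libraries and above FAPs in replicate 1 only. Whether Ucp1 would be called without that subcluster was not tested. Endothelial nuclei were not below adipocytes throughout, with Ucp1 at 17.3 and 16 CPM against 17.3 and 13.4, and Thrsp in replicate 2 at 1907.5 CPM against 1796.8. Me1 had 5862.6 and 6660.0 CPM in adipocytes and 1005.6 and 1693.3 in FAPs.

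AGGTCA is the core DNA motif that thyroid hormone receptors and several other members recognise, and because Thrb had the largest fold in adipocytes with both libraries, a stretch before one of its starts is shown with the match in capitals. The 150 bases run from 250 to 101 bases before a start of Thrb in the RefSeq promoter table (GRCm38.p6, chr14:17660710-17660859, plus strand, an older build than that of the deposited tables).
Thrb promoter: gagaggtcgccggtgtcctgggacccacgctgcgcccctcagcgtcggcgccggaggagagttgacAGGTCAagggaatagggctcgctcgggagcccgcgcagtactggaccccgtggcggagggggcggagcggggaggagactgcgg
The letters AGGTCA, or TGACCT on the other strand, were searched in the 250 bases before each start. The table held 7 of the 9 members with 11 starts, and 2 of the 11 had a match, this one and a start of Rxra with 2 matches. A match was found in 14.0% of all 32851 promoters, with no chromosome left out, and it describes the letters, not binding.

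Rora encodes a receptor of the ROR group, which acts as a single protein on DNA elements shared with the circadian clock. Its level was 1342.6 and 1776.3 CPM in FAPs, 1080.8 and 1671.4 in smooth muscle nuclei, 1093.5 and 1352.7 in adipocytes, 871 and 1255.5 in mesothelial nuclei, 449 and 791 in endothelial nuclei, and 349.9 and 457 in immune nuclei. The 4 upper types overlapped in turn, mesothelial nuclei did not overlap endothelial nuclei, and immune nuclei were lowest in both libraries. In immune nuclei the log2 fold change was -1.48 (SE 0.19, adjusted p 7.0e-09), and Rora stood there at 32.0% and 33.8% of the adipocyte level, near the markers' medians of 37.3% and 30.1%. In FAPs it was 0.88 (adjusted p 1.6e-05) and in adipocytes 0.75 (adjusted p 7.5e-05), both under the fold threshold.

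Of 16 tested clock genes that carry the element bound by ROR proteins or act beside it, 3 were called higher in adipocytes and 0 lower by edgeR, with a median of 0.26. They were Bhlhe40 (log2 fold change 1.74), Cry2 (1.20) and Nfil3 (1.12). Nfil3 was above all other types only in replicate 2, and in replicate 1 it had 11.9 CPM in adipocytes and 25.9 in endothelial nuclei. Bhlhe40, a repressor of the clock, had 475 and 222 CPM in adipocytes and 137 and 77.7 in FAPs. Nr1d1, a receptor that competes with ROR proteins for the same element, was highest in mesothelial nuclei at 205 and 153 CPM, where it was called (log2 fold change 1.17), beside 78.6 and 67.2 in adipocytes.

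Esr1 encodes estrogen receptor alpha. Its level was 707 and 1156.3 CPM in adipocytes, 659 and 1131.7 in mesothelial nuclei, 564 and 734 in FAPs, 435 and 853 in smooth muscle nuclei, 210.3 and 394 in immune nuclei, and 173 and 404 in endothelial nuclei. Within each library adipocytes were above all others, yet the ranges of the 4 upper types overlapped in turn, and smooth muscle nuclei did not overlap immune nuclei. The mesothelial level was 93.2% and 97.9% of the adipocyte level, far above the range of the markers there, 17.8% to 47.9% and 24.4% to 57.3%. The log2 fold change was 1.17 in adipocytes (SE 0.15, adjusted p 6.9e-09), 0.82 in mesothelial nuclei (adjusted p 6.4e-05, but 0.05 with nuclei under 5% mitochondrial UMIs, where clusters were redrawn and the mesothelial group held 72 and 3241 nuclei), -1.10 in immune nuclei (SE 0.19, adjusted p 4.9e-06) and -1.24 in endothelial nuclei (SE 0.20, adjusted p 2.3e-06). Without the library block the calls of Esr1, receptors in immune nuclei (adjusted p 0.0797) and Esr1, receptors in endothelial nuclei (adjusted p 0.101) ended, and with nuclei under 5% mitochondrial UMIs the endothelial value was -0.89.

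Of 8 tested estrogen targets, 0 were called higher in adipocytes by edgeR and 3 were called lower, with a median of -0.94. Igf1, not called in adipocytes (0.92), had its highest levels in the same 2 types as Esr1, at 732 and 1117.7 CPM in mesothelial nuclei and 487 and 473 in adipocytes. Cxcl12, a chemokine, had 14.8 and 4.01 CPM in adipocytes and 565 and 156 in endothelial nuclei (log2 fold change in adipocytes -3.07). Pgr, the progesterone receptor, had 1.54 and 2.82 CPM in adipocytes, 24.0 and 30.5 in mesothelial nuclei, and 120.1 and 77.3 in smooth muscle nuclei, where the first value is 8 UMIs in 1 of 23 nuclei (-2.59), and Ccnd1, a cyclin, was at -2.87. Cyp19a1, the aromatase that makes estrogens, was low, with 5.72 and 4.44 CPM in adipocytes and 5.41 and 7.86 in FAPs. Of 7 tested genes of steroid metabolism 2 were called higher in adipocytes and 0 lower by edgeR (median 0.96): Hsd17b12, with 666 and 597 CPM (log2 fold change 1.89), and Hsd17b4 (1.33). Both enzymes also act on fatty acids.

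Nr1h3 encodes the liver X receptor alpha, an oxysterol sensor that pairs with retinoid X receptors. Its level was 60.0 and 109 CPM in smooth muscle nuclei, 76.6 and 82.5 in adipocytes, 41.4 and 66.4 in FAPs, 25.9 and 68.2 in endothelial nuclei, 29.2 and 34.0 in immune nuclei, and 13.7 and 30.1 in mesothelial nuclei. Smooth muscle nuclei and adipocytes overlapped, adipocytes did not overlap FAPs, and mesothelial nuclei were lowest in both libraries. In adipocytes the log2 fold change was 1.14 (SE 0.19, adjusted p 1.1e-06), with 0.91 without replicate 1 and 1.57 without replicate 2. In mesothelial nuclei it was -1.29 (SE 0.25, adjusted p 4.9e-05). The mesothelial level was 17.9% and 36.5% of the adipocyte level, within the range of the adipocyte markers in both libraries.

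Of 14 tested targets of liver X receptors, 8 were called higher in adipocytes and 3 lower, with a median of 1.20. The higher ones included Srebf1 at 1787.0 and 871 CPM (log2 fold change 1.81), Lpl at 5295.2 and 2431.6 (1.68), Fasn at 3728.8 and 2382.0 (1.57) and Abca1, a cholesterol exporter, at 626 and 739.7 (1.27). In replicate 2 endothelial nuclei had more than adipocytes of Fasn (2640.2 CPM) and of Scd1 (6448.1 against 4674.7). The lower ones were Pltp, Abcg5 and Smpdl3a. In immune nuclei 4 were called higher, where 10.9% of all genes were, and 0 lower by edgeR. Pltp, a phospholipid carrier, had 752 and 499 CPM there against 19.2 and 14.4 in adipocytes (log2 fold change in immune nuclei 3.86). Apoe stood at 3.90 and Abcg1, a cholesterol exporter, at 2.01. Nr1h3 itself was at 29.2 and 34.0 CPM in the same nuclei, and Nr1h2, the other liver X receptor, at 41.7 and 39.9, beside 32.1 and 24.4 in adipocytes.

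Ppara encodes a fatty acid sensor that drives genes of fatty acid oxidation. Its level was 58.1 and 127 CPM in adipocytes, 43.3 and 65.8 in FAPs, 56.1 and 39.3 in endothelial nuclei, 42.8 and 40.5 in mesothelial nuclei and 16.7 and 34.8 in immune nuclei. Smooth muscle nuclei had 0 UMIs in replicate 1, which allows up to 45.0 CPM, and 34.3 CPM in replicate 2. Each library was highest in adipocytes, and replicate 1 of adipocytes lay inside the range of FAPs. Outside a small subcluster led by Ucp1, described further on, adipocytes of replicate 1 held 39.4 to 48.1 CPM, below the 56.1 CPM of endothelial nuclei. The log2 fold change in adipocytes was 1.63 (SE 0.20, adjusted p 1.2e-09), and all 10 pairs of another type and a library had less than adipocytes. Its relative Pparg, the receptor that drives adipocyte formation, had 3762.0 and 4359.5 CPM in adipocytes and 578 and 1091.5 in FAPs, a log2 fold change of 2.24. Ppard, the last of that group, had 37.1 and 55.9 CPM in adipocytes, and its log2 fold change was 0.25 (adjusted p 0.295).

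Of 15 tested targets of Ppara, 11 were called higher in adipocytes and 2 lower, with a median of 1.47. Acsl1, which activates fatty acids, had 1669.8 and 2087.3 CPM in adipocytes and 247 and 459 in FAPs (log2 fold change 2.43). Ucp3 (1.92), Pex11a (1.84) and Pdk4 (1.69) were also higher. The lower ones included Cpt1a, the liver form of the enzyme that admits fatty acids to mitochondria (-1.67). Cpt1a had 11.1 and 8.16 CPM in adipocytes and 45.8 and 72.7 in immune nuclei. Several genes of this list are also targets of Pparg.

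Rxra encodes retinoid X receptor alpha, the partner with which thyroid hormone, liver X and peroxisome proliferator receptors pair. It was the most even of the 9, with means from 35.7 CPM in mesothelial nuclei to 57.0 in endothelial nuclei, and 53.3 and 33.2 CPM in adipocytes. Neighbours in its order overlapped, except immune nuclei (50.0 and 50.4 CPM) above FAPs (48.7 and 42.2). No comparison called it, and in adipocytes its log2 fold change was 0.16 (SE 0.21, adjusted p 0.563). Of the other partners, Rxrb had 14.8 and 13.9 CPM in adipocytes and Rxrg 18.4 and 20.8. Rxrg was called higher in adipocytes (log2 fold change 1.20, adjusted p 7.2e-04), at 1.80 and 9.61 CPM in FAPs.

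Retinoids and oxysterols are the ligands of these partners and of liver X receptors. Of 11 tested genes that handle them, 5 were called lower in adipocytes, where 17.7% of all genes were, and 2 higher (median -0.64). Of the 2 higher ones, Rbp4, a retinol carrier (log2 fold change 1.60), had 127 CPM in adipocytes of replicate 2 against 139.6 in endothelial nuclei. The other was Aldh1a1, a retinaldehyde dehydrogenase with 309 and 569.7 CPM in adipocytes and 261 and 378 in FAPs. Its relatives stood elsewhere, Aldh1a3 in FAPs at 117 and 74.5 CPM and Aldh1a2 in mesothelial nuclei at 125 and 104 CPM, both under 5 CPM in adipocytes. Cyp7b1, which breaks down oxysterols, had 5.10 and 7.82 CPM in adipocytes and 165 and 235 in smooth muscle nuclei (-2.81).

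Of 18 coregulators 3 were called higher in adipocytes, where 9.33% of all genes were, and 1 lower, where 17.7% were, with a median of 0.39. Nrip1, a corepressor of oxidative genes in fat, had 581 and 751 CPM in adipocytes and 169 and 348 in FAPs (log2 fold change 1.86). Ppargc1b (1.92) and Ppargc1a (1.71), coactivators of mitochondrial genes, were also higher, and the coactivator Ncoa3 was lower (-1.01). Over the whole family, 38 of 49 nuclear receptor genes were tested, with 9 called higher in adipocytes (9.33% of all genes) and 7 lower (17.7% of all genes) and a median of 0.10. Beside the 5 described above, the higher ones included Pparg, Esrra (1.23) and Rxrg, and the lower ones included Pgr, Nr4a1 (-2.38), Rorb (-1.45), Rarg (-1.43) and Nr5a2 (-1.42).

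**Figure D3:**
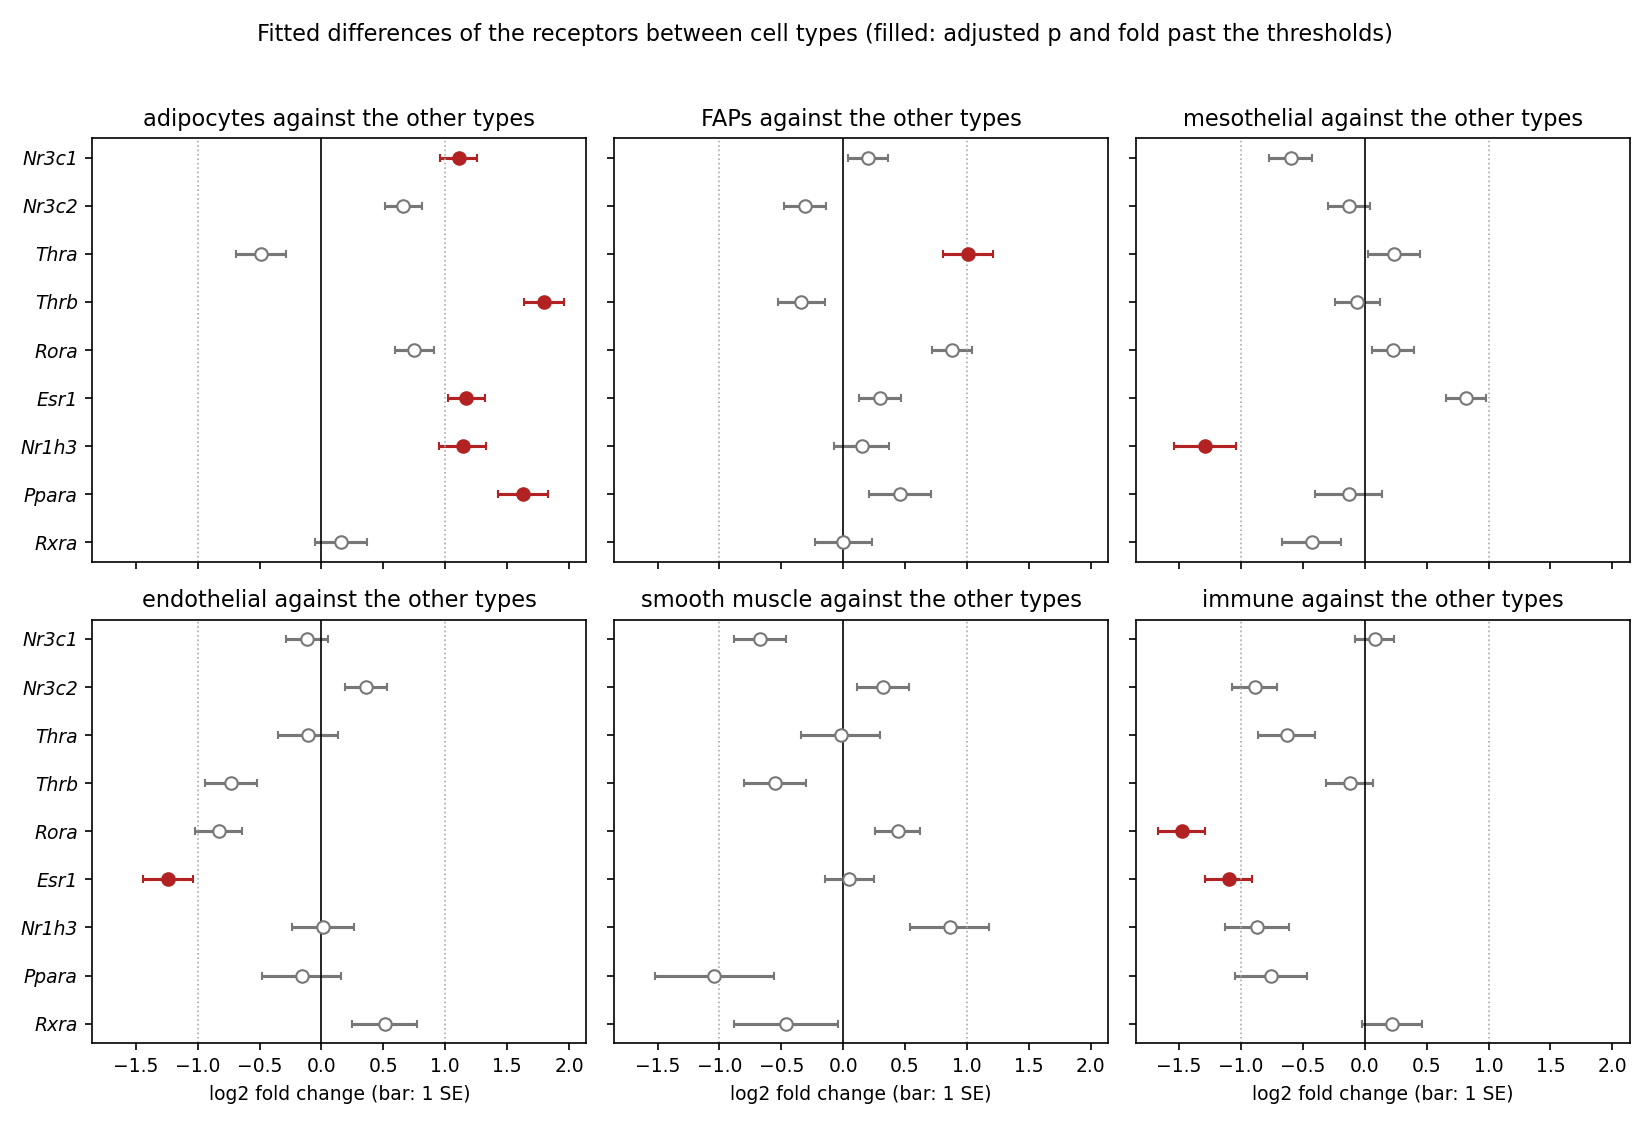
The horizontal axis is the log2 fold change of each receptor between a cell type and the mean of the other 5, with a bar of 1 SE, in a panel for each cell type. Filled points pass both thresholds; adipocytes have 5 of them on the higher side, led by Thrb at 1.80, and smooth muscle nuclei have 0 (5 at an unadjusted p under 0.05 by edgeR, 0 called by DESeq2).

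**Figure D4:**
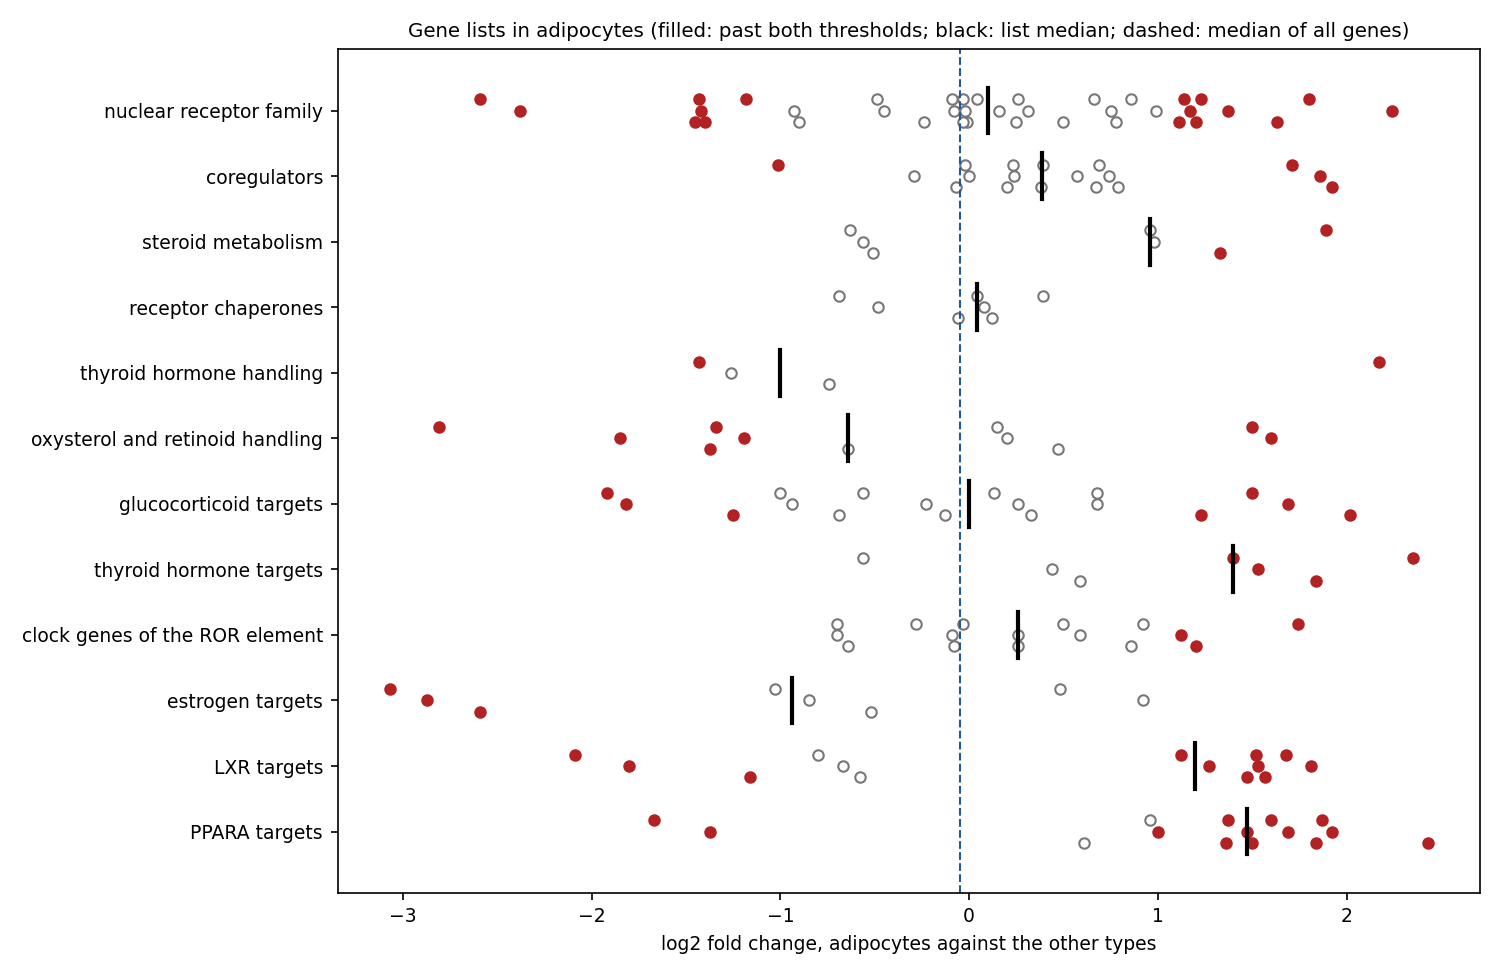
The horizontal axis is the log2 fold change in adipocytes against the other types, and each line of points is a gene list named on the vertical axis, with filled points past both thresholds and a black mark at the median of the list. Targets of Ppara have a median of 1.47 and estrogen targets -0.94, beside -0.05 over all genes (dashed).

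Genes were set side by side per length of exon and of the whole gene, and whether UMIs follow either length was not tested. On CPM per kilobase of exon in adipocytes, Rora stood at 75.6 and 93.5, Nr3c1 at 73.5 and 88.2, Thrb at 64.3 and 93.8, Esr1 at 50.7 and 82.9 and Nr3c2 at 28.5 and 41.2. Nr1h3 followed at 15.1 and 16.3, Ppara at 8.82 and 19.3, Rxra at 7.76 and 4.83 and Thra at 6.88 and 5.56. Nuclear RNA also holds introns, and per kilobase of the whole gene the order differed: Nr3c1 led at 5.32 and 6.38 CPM, followed by Nr1h3 at 4.03 and 4.34, and Rxra was last at 0.613 and 0.382. So Nr3c1 was among the upper receptors on both scales, while the places of Nr1h3, Rora, Thra and Nr3c2 moved by 3 or more ranks between the scales. Exons of Thra overlap those of Nr1d1 on the opposite strand by 1694 bases, those of Ppara overlap Cdpf1 by 1803 and those of Nr1h3 overlap Acp2 by 256. Long noncoding RNAs overlap exons of Nr3c1 by 1165 bases (Gm58395), of Nr3c2 by 751 (Gm10649) and of Thrb by 274. Whether counting used the strand is not stated in the sources used here, so the share of UMIs that belongs to the overlapping gene was not tested.

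The genes whose levels most followed a receptor over the 12 sums (6 types in 2 libraries, which share depth and library) were found among 18121 genes. For Thrb it was Fam13a (Pearson r 0.955), at 1222.1 and 2508.9 CPM in adipocytes and 187 and 650.4 in FAPs, followed by Med12l (0.949) and Clybl (0.947). For Thra it was Fkbp7 (0.961), followed by Epb41l3 (0.945) and Bmp1 (0.938), a procollagen protease with 6.95 and 9.39 CPM in adipocytes and 105 and 151 in FAPs. Rora went with Pard3 (0.964), Esr1 with Zfp385b (0.961), Nr3c2 with 1700030K09Rik (0.951), Nr3c1 with Tbc1d4 (0.942) and Nr1h3 with Rev1 (0.910). No gene is named for Ppara, since its closest genes shared with it a count of 0 in the smallest sum. For Rxra, the most even receptor, the highest value was 0.835, with Polg. These are descriptions over sums that are not independent.

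Adipocytes were divided further by clustering them alone, without the receptors and listed genes among the clustering features. Subcluster 1 held 1693 and 4893 nuclei (median 5049 UMIs) and subcluster 2 held 293 and 2153 (median 1688 UMIs). Subcluster 2 was led by Chl1, Gm10801 and Ttn and also passed the limits for markers of other types, so it is given no cell type name. Set against nuclei outside adipocytes, it passed for adipocyte markers. At resolution 0.3 a cluster of 2769 nuclei led by Ttn, Gm10718 and Chl1 stood apart from adipocytes. It passed for 0 of 10 adipocyte markers and was left unnamed. Nuclei of subcluster 2 are counted as adipocytes in the main levels and tests. Nr3c1 had 219 and 448 CPM in subcluster 2 against 609 and 730.4 in subcluster 1, and Thrb 299.9 and 595 against 615 and 902. In it 6 of the 9 receptors were called lower, where 14.0% of 21809 genes were, and 0 were called higher by edgeR, where 45.5% were. They were Nr3c1 (log2 fold change -1.74), Thrb (-1.48), Esr1 (-1.48), Nr1h3 (-1.43), Nr3c2 (-1.18) and Ppara (-1.04). These folds include the scaling of edgeR, and for Nr3c1 and Thrb they are larger than the ratios of the CPM given above. Without the library block the calls of Thrb, Esr1, Nr3c2 and Ppara ended. Adipocyte markers were lower by similar amounts, with 6 of 10 called, from Adipor2 (-1.59) to Plin4 (-1.16). Depth, mitochondrial share and background moved with this division: 1505 odorant and vomeronasal receptor genes, which serve as a background, stood at 0.267 and 0.203 CPM per kilobase in subcluster 2 against 0.0455 and 0.0285 in subcluster 1, and their part in the result was not tested. DESeq2 called 8 members lower, where it called 6283 of the 21809 genes lower, and the median of all genes was 0.57 with edgeR and 0.08 with DESeq2.

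Another division appeared in 5 of 7 clusterings that differ in a single setting, and it was singled out after the values were seen. It is a subcluster of adipocytes led by Ucp1, the uncoupling protein of heat-producing fat cells, with Cidea, Dio2 and Esrrg among its leading genes. It held 74 to 166 nuclei of replicate 1 and 465 to 706 of replicate 2, 6.43% to 10.3% and 6.91% to 15% of the adipocytes of the same clustering. The upper ends are at resolution 0.3, where adipocytes numbered 1610 and 4697. Inside it Ppara stood at 177 to 234 CPM in replicate 1 and 329 to 431 in replicate 2, against 39.4 to 48.1 and 90.7 to 95.2 in the other adipocytes. Nr3c2 stood at 489 to 589 and 612 to 668 CPM, against 210.4 to 271 and 312 to 319.9. Both receptors were thus higher inside in each library and each of the 5 clusterings, with no overlap between inside and outside within a library.

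Against the mean of the other subclusters, the log2 fold change of Ppara was 1.90 to 2.43 (median 2.19) and that of Nr3c2 was 1.00 to 1.66 (median 1.38). The other subclusters differed between clusterings, so these ranges pool unlike references. Nr3c2 was 1.00 with nuclei under 5% mitochondrial UMIs and 1.07 at resolution 0.3, where all genes had medians of -0.04 and -0.00. With 15 principal components, highest doublet scores removed and listed genes kept, it was 1.38, 1.45 and 1.66. The medians there were -0.36, -0.38 and -0.19. Ppara and Nr3c2, 2 of the 9 receptors, passed both thresholds of edgeR in all 5 clusterings, with adjusted p from 8.6e-40 to 1.3e-10 and from 3.3e-17 to 4.8e-07. Thrb passed in 1 of the 5, at 1.07, the clustering with listed genes kept as features, and the other 6 receptors in 0 by edgeR, with values for Nr3c1 from -0.01 to 0.76 and for Rxra from -0.87 to -0.48. In each of the 5 the CPM of Nr3c1 was lower inside in replicate 1 (491 to 588, against 588 to 672 in other adipocytes). In replicate 2 it was higher inside (771 to 785, against 683 to 723). The share of all genes called higher was 1.77% with nuclei under 5% mitochondrial UMIs, 2.05% at resolution 0.3, 1.80% with 15 principal components, 2.35% with the highest doublet scores removed and 3.94% with listed genes kept as features. In 4 of the 5 the nuclei were grouped by other genes of the same nuclei, and in the last the listed genes, Ppara and Nr3c2 among them, could enter the grouping, so its folds (2.43 and 1.66, the highest) are partly circular. The p values are thus no independent test. With library as a block, they set size against how group differences vary between the 2 libraries. They do not measure the spread of levels between mice.

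At resolution 0.3, where this subcluster held 166 and 706 nuclei, Ppara had 188 and 329 CPM against 39.4 and 90.7 in the other adipocytes (log2 fold change 2.01, SE 0.14), and Nr3c2 489 and 612 against 217 and 312 (1.07, SE 0.12). Ucp1 itself had 106 and 77.0 CPM against 5.34 and 1.59. Of 37 tested nuclear receptors 6 were called higher, where 2.05% of all genes were, and 0 lower by edgeR. Among the 6 were Esrrg (log2 fold change 4.09), Rarb (2.03), Ppara, Nr4a2 (1.21) and Nr3c2. Esrrg, a receptor with constitutive activity on mitochondrial genes, had 338 and 339.6 CPM against 18.6 and 21.7. Pparg did not differ beyond the spread there, with 3990.7 and 4762.7 CPM against 3999.5 and 4613.5 (0.05, adjusted p 0.878).

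Of the other genes tested there, Prdm16 (log2 fold change 3.42) and Ppargc1a (1.43), coregulators of thermogenic genes, were the 2 of 18 coregulators called higher. The pairing partners Rxra (-0.49), Rxrb (0.24) and Rxrg (0.43) were not called. Of 16 tested targets of Ppara 4 were called higher (Pdk4 1.92, Hadhb 1.33, Hadha 1.24 and Acadl 1.00), where 2.05% of all genes were. Of the same targets 1 was called lower (Fgf21, -1.61), and this was not set against the share of all genes. Their median was 0.72 beside -0.00 over all genes. The lower mitochondrial limit gave 4 of 15 higher and 0 lower. With 15 principal components, highest doublet scores removed and listed genes kept, 8 of 19 were higher in each. There 2, 1 and 2 were lower, with Cpt1a in each and Fgf21 in none. At resolution 0.3 Dio2, which converts thyroid hormone to its active form, had 10.7 and 83.9 CPM against 2.37 and 6.59 (3.54). Hsd11b1, which makes the glucocorticoid that Nr3c2 also binds, had 160.3 and 78.5 CPM against 59.0 and 29.0 (1.38). Aldh1a1 was lower, with 106 and 268 CPM against 353 and 662 (-1.38).

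**Figure D5:**
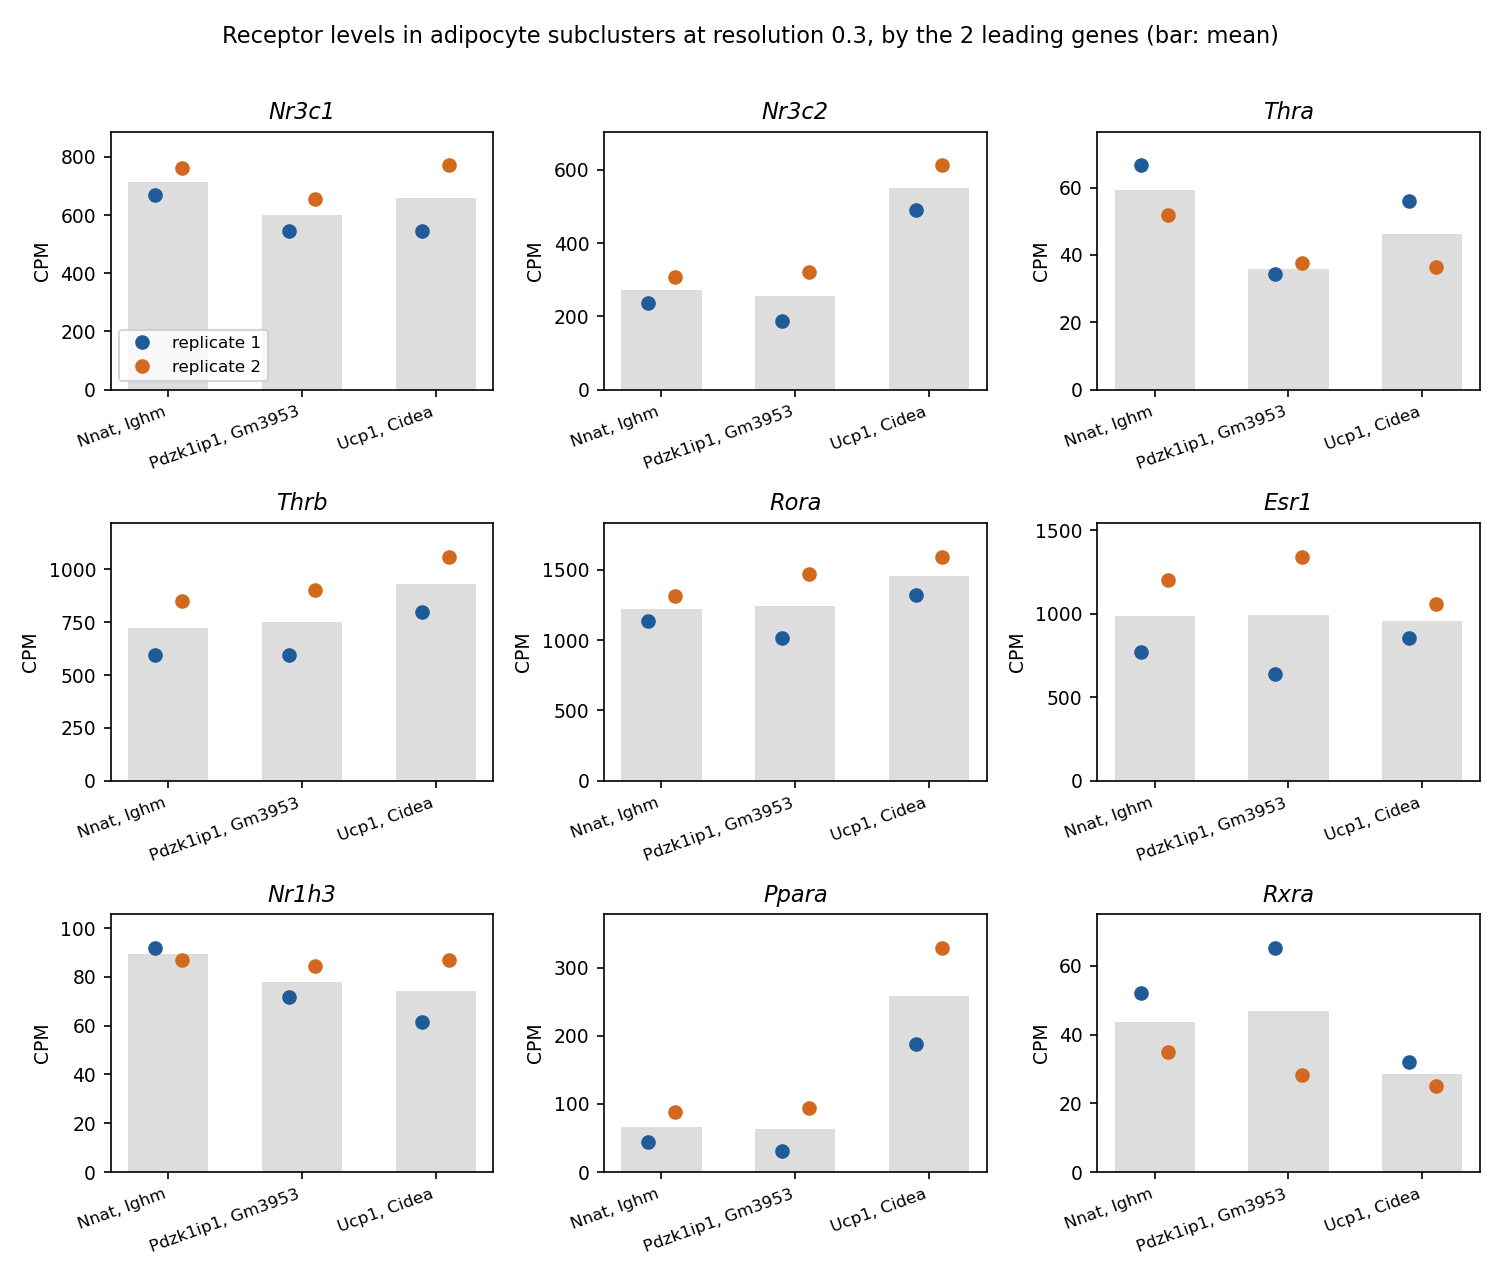
The vertical axis of each panel is the level of a receptor in CPM and the horizontal axis gives the adipocyte subclusters at resolution 0.3 by their leading genes, with a point for each library and a bar for the mean. In the subcluster led by Ucp1, Ppara reaches 188 and 329 CPM and Nr3c2 489 and 612, above the other subclusters in both libraries.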

How the data were processed

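Visceral fat nuclei of 2 mice were analysed from the deposited tables, and the remaining libraries of the study were not used here. The authors made the deposited counts with CeleScope on GRCm39, as whole UMIs per gene and called nucleus, with no scaling, and as UMI counts per barcode. The deposited downsampling tables, also from CeleScope, give the fraction of reads kept at each step. In the same deposited tables saturation is a percent, 65.79% in replicate 1 and 52.77% in replicate 2 with all reads. The CeleScope version, the annotation and the strand setting are not stated. Gene positions and lengths came from GENCODE vM39 (GRCm39) and promoters from RefSeq (GRCm38.p6).

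Nuclei that passed the filters were clustered from 1000 variable genes without the receptors and listed genes, with 30 components, Harmony written in numpy, 20 neighbours and Leiden resolution 0.1. Subclusters used 16 components. Scrublet with 6% expected doublets marked 1 nucleus per library, so no nuclei were removed. The subclusters with adipocyte genes in FAPs, mesothelial and immune nuclei had mean doublet scores of 0.264, 0.279 and 0.248, beside 0.0928 over all nuclei. The nuclei of these 3 subclusters stayed in the main levels and tests, and leaving them out is among the alternatives. An endothelial subcluster (25 and 127 nuclei, mean score 0.136) and a smooth muscle subcluster (20 and 121, 0.0959) also passed for adipocyte markers. Both scores are under the limit of 0.2, and that alternative did not leave these nuclei out. UMIs were summed per library and type with at least 20 nuclei in each library, and tested in edgeR 4.0.16 (limma 3.58.1, TMM, filterByExpr, quasi-likelihood, Benjamini-Hochberg over all genes tested), under R 4.3.3. Folds from the tests include TMM factors, so they can differ from ratios of CPM. Folds given without a replicate come from the other library alone. They are differences of log2 CPM with TMM factors and a prior count of 2, with no fitted model. Pairing by library was checked first: over 15 pairs of types and 400 genes the differences between libraries correlated with r from 0.642 to 0.918 (median 0.719). Zero counts were read against a floor of 3 UMIs. For edgeR, the SE is the size of the log2 fold change divided by the square root of its F statistic. DESeq2 1.42.0 served as an alternative. Other software was scanpy 1.11.5, igraph 0.11.9, matplotlib 3.10.9, pandas 2.3.3, leidenalg 0.10.2, numpy 2.4.6, anndata 0.12.19, scikit-learn 1.9.0 and scipy 1.17.1 under Python 3.11.15, with seed 1.

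The members and the 12 gene lists were chosen with earlier results of these data known. Named genes are the members, up to 3 genes most alike to each, up to 5 called genes per direction and list in adipocytes, and listed genes whose role bears on a member. Genes named for other cell types or for the subcluster led by Ucp1, and Abca1, were chosen after their values were seen. The rule that names clusters and the rule for mixed subclusters were each used in 2 versions, the second written after the clusters had been seen. Also chosen after values were seen were the odorant and vomeronasal background, the comparison with adipocyte markers, the subcluster led by Ucp1, the doublet score limit of 0.2, and the alternatives that leave out adipocyte subcluster 2 or subclusters with adipocyte genes. The other alternatives were DESeq2, no filter on low counts, no block, a mitochondrial limit of 5%, resolution 0.3, 15 components, no Harmony, removal of the 170 and 734 nuclei with the highest Scrublet scores, listed genes kept as features, no fold threshold, mixed subclusters left out, and each library alone. Some genes of the lists are not reported here.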

Additional observations from a re-analysis of the deposited data

How the results depend on the processing

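Of 846 values of the receptors under alternatives with a test, 759 kept their side of the thresholds, 14 lost a call and 70 gained a call. Another 3 called values reversed in sign, whether or not they were still called. Among the 759 are 32 values without a call whose sign changed, and size was not part of this count. The cause was not tested for any change given here. With nuclei under 5% mitochondrial UMIs clusters were also redrawn, and groups held other nuclei (mesothelial 72 and 3241, against 241 and 2094), so its counts do not isolate the limit. The number of receptors in adipocytes went from 5 to 4 with DESeq2, 6 with no filter on low counts, 7 with nuclei under 5% mitochondrial UMIs and with mixed subclusters left out, and 8 for adjusted p with no fold threshold. Receptors in FAPs went from 1 to 0 with 15 principal components and to 2 with the highest Scrublet scores removed, 2 for adjusted p with no fold threshold, 2 with mixed subclusters left out and 2 with subclusters with adipocyte genes left out. Without replicate 1 the number past the fold was 0 and without replicate 2 it was 3.

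Receptors in immune nuclei went from 2 to 1 with no replicate block, to 5 with nuclei under 5% mitochondrial UMIs, with the highest Scrublet scores removed, with mixed subclusters left out and with subclusters with adipocyte genes left out, and to 6 for adjusted p with no fold threshold. They were 3 without replicate 1 and 4 without replicate 2. Receptors in mesothelial nuclei went from 1 to 2 with nuclei under 5% mitochondrial UMIs, with mixed subclusters left out and with subclusters with adipocyte genes left out, and to 3 for adjusted p with no fold threshold. They were 1 without replicate 1 and 2 without replicate 2.

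Receptors in endothelial nuclei went from 1 to 0 with no replicate block and with nuclei under 5% mitochondrial UMIs, to 3 for adjusted p with no fold threshold and to 2 with mixed subclusters left out. They were 1 without replicate 1 and 3 without replicate 2. Receptors in smooth muscle nuclei went from 0 to 1 with 15 principal components, with no Harmony correction, for adjusted p with no fold threshold and with subclusters with adipocyte genes left out. They were 0 without replicate 1 and 1 without replicate 2. With nuclei under 5% mitochondrial UMIs and with mixed subclusters left out, smooth muscle was not run, since too few nuclei were left in replicate 1.

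Between adipocytes and FAPs the number went from 2 to 5 with no filter on low counts and with nuclei under 5% mitochondrial UMIs, to 4 with Leiden resolution 0.3 and with the highest Scrublet scores removed, and to 7 for adjusted p with no fold threshold and with mixed subclusters left out. Between adipocyte subclusters it went from 6 to 2 with no replicate block, and to 8 with DESeq2 and with no filter on low counts, and 7 for adjusted p with no fold threshold. It was also 2 with nuclei under 5% mitochondrial UMIs and with Leiden resolution 0.3, but the calls there turn on the subcluster led by Ucp1, a different group of nuclei. So these numbers and the values reversed in sign with nuclei under 5% mitochondrial UMIs do not compare like with like. Those values were 1.00 for Nr3c2, 0.37 for Thrb and 1.90 for Ppara, and Thrb was not called there (adjusted p 0.199 by edgeR). The alternatives that leave out adipocyte subcluster 2 or subclusters with adipocyte genes were chosen after seeing the data.

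For levels, the median over receptors and types was 219.5 CPM, 248 without replicate 1 and 164 without replicate 2. It was 252 CPM with nuclei under 5% mitochondrial UMIs, where 12 of 54 levels moved by more than the SD between libraries, and 229 CPM without mitochondrial genes, where 3 of 54 did. Between these 2 alternatives only Rxra in mesothelial nuclei moved as far as 1.5 times, from 35.7 to 23.6 CPM with nuclei under 5% mitochondrial UMIs. With 2 mice and 23 smooth muscle nuclei in replicate 1, low receptors such as Ppara rest on few UMIs there.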

Other observations

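A small cluster with markers of lymphatic endothelium, counted among the endothelial nuclei, held 2 nuclei of replicate 1 and 22 of replicate 2. In replicate 2 Nr3c2 stood there at 1449.2 CPM (82 UMIs), with a UMI in 86.4% of the nuclei, and in replicate 1 it had 0 UMIs, where 3 UMIs would equal 1107.4 CPM. Rora stood at 738 and 1378.5 CPM, the first of which lies below that floor of 3 UMIs. With 2 nuclei in replicate 1 this was not tested.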
